A study of Mus musculus with 6 samples.

Results

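The genes described here encode the proteasome, its activators and its assembly chaperones. They were chosen by symbol, as the genes of the deposited table named Psma, Psmb, Psmc, Psmd, Psme, Psmf or Psmg followed by a number. The rule found 46 of the 11108 genes in the table. By role, 8 were alpha subunits of the core particle (Psma1 to Psma8), 7 were its constitutive beta subunits (Psmb1 to Psmb7) and 2 were immunoproteasome beta subunits (Psmb8 and Psmb10). A further 6 were ATPases of the regulatory particle (Psmc1 to Psmc6) and 4 were activators (Psme1 to Psme4). The 14 genes Psmd1 to Psmd14 are called lid and base here. That role and its sums include Psmd5, Psmd9 and Psmd10, which encode chaperones that assemble the base. The remaining 5 were the inhibitor Psmf1 and the assembly chaperones Psmg1 to Psmg4. Psmb9 and Psmb11, which the rule also covers, are not analysed here.

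Expression was measured by RNA-seq in haematopoietic stem cells of mouse bone marrow, with 3 libraries labelled wild type (WT) and 3 labelled Mcph1-/-, homozygous for loss of the microcephaly gene Mcph1. Each library held 200 cells, sorted as lineage-negative, Sca-1+ c-Kit+ CD34- CD150+ cells, and was made with Smart-seq2, which amplifies full-length cDNA from very small inputs. Cells were untreated, and the labels give neither the age of the mice, nor how the allele was made, nor if same-genotype replicates were different animals. All p-values here therefore reflect variation between libraries alone, some or all of which may be technical.

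The proteasome is the barrel-shaped protease that degrades ubiquitin-tagged proteins in the cytosol and nucleus. Its core particle stacks rings of alpha subunits, which gate the entrance, on rings of beta subunits, some of which carry the peptide-cutting sites, and a regulatory particle with a lid and an ATPase base binds, unfolds and feeds in the substrate. Blood cells also make the immunoproteasome, in which Psmb8, Psmb9 and Psmb10 take the places of Psmb5, Psmb6 and Psmb7 and favour peptides suited to MHC class I.

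Promoter sequence upstream of the start site was read for the members from RefSeq (build GRCm38.p6), which had an entry for 38 of the 46. Psma8, Psmb1, Psmb2, Psmb7, Psmc3, Psmd3, Psmd7 and Psmg2 had none. Of the 38, 3 are printed in part 5′ to 3′, outside annotated exons. Psmb5 and Psmb10 enter the subunit ratios below, and Psmd12 had the smallest limma p among proteasome genes. Psmb5 (chr14:54618023-54618245, minus strand) and Psmd12 (chr11:107479278-107479483, plus strand) hold the letters TGACNNNGC, the core to which the proteasome activator NRF1 and its relative NRF2 are known to bind. Psmb10 (chr8:105938445-105938642, minus strand) holds none of the motifs searched. Capitals mark the match, which lies on the opposite strand in Psmd12.
Psmb5: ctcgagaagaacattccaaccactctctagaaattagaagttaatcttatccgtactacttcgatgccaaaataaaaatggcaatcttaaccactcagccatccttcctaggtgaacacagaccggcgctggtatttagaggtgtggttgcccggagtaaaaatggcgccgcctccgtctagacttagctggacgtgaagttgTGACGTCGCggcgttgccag
Psmd12: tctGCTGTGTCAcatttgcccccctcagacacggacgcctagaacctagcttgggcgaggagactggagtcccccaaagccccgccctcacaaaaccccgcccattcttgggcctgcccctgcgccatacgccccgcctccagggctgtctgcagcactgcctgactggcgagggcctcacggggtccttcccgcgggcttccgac
Psmb10: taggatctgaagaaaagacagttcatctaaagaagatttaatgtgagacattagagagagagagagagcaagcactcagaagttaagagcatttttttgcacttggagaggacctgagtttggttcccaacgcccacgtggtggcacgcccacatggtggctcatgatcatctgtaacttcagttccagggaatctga

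In windows from 250 bases before to 50 bases after the start, searched on both strands, TGACNNNGC occurred in 6 of 38 members (15.8%), namely Psmb5, Psmb6, Psmc6, Psmd9, Psmd12 and Psme4. It occurred in 14.0% of the 27025 genes with a window. CCAAT, the letters bound by the factor NF-Y, occurred in 12 members (31.6%) and in 41.1% of all genes. An interferon response element, taken as GAAA followed after any pair of bases by GAAA, occurred in 5 members (13.2%; Psmb3, Psmd4, Psmd9, Psme1 and Psmg4) and in 3.99% of all genes. The windows of Psmb8 and Psmb10, both known as interferon-inducible, held none of these letters. A match describes the letters only, and its absence says only that the letters are not in that window.

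Libraries held 8102605 to 8655123 recovered reads in WT and 9464810 to 10455908 in Mcph1-/-. Values are normalised read counts, which are reads divided by 1 size factor per library. A library with 0 reads of a gene can hide up to 3 reads, a value of 2.46 to 3.25. Mcph1 itself was at 160.5, 341 and 34.4 in the WT libraries and at 428, 37.7 and 234 in the Mcph1-/- libraries, each in the order of replicates 1, 2 and 3 used throughout. The groups overlapped, and as the labels do not say which part of the gene is missing, its count does not check the labels. Of 15 stem cell markers 14 were listed. Kit and Ly6a (Sca-1) were read in every library, while Slamf1 (CD150) was at 0 in WT replicate 1 and at 0.893, a single read, in Mcph1-/- replicate 3.

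All 46 proteasome genes were well above the filter on low values (mean of at least 10) and were tested. Their median mean value was 2219 normalised reads, against 286 over the 10846 genes tested. The median SD of log2(value + 1) between libraries of a genotype was 0.27 for the proteasome genes and 0.88 for all genes tested. The steadiest and the least steady proteasome genes had SDs of 0.12 and 3.59.

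**Figure D1:**
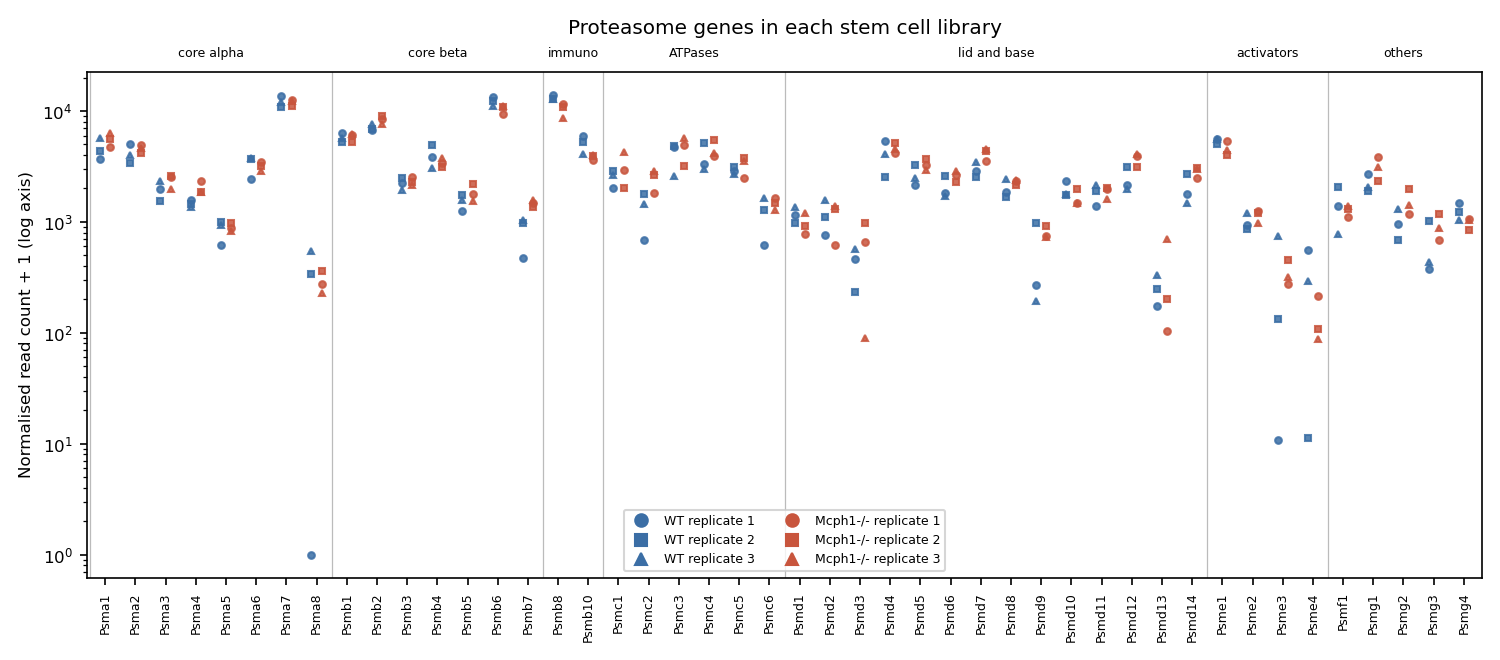
Normalised read count plus 1 of each proteasome gene (log axis), with 1 point per library, blue for WT and red for Mcph1-/-. For 39 of the 46 genes the genotypes overlap, and Psma8, Psme3 and Psme4 each have a WT library far below the others.

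No proteasome gene passed the test between genotypes. Genotypes were compared by limma-trend, fitted to log2(value + 1) for all genes tested with p-values adjusted by Benjamini-Hochberg, and the smallest adjusted p among the 46 was 0.626. Over all genes 4 passed, or 0.0369%. At an unadjusted limma p under 0.05, 4 proteasome genes were higher in Mcph1-/- (Psmd12, Psmc2, Psmb7 and Psmd7) and 1 was lower (Psmb8). These are 8.70% and 2.17% of the 46, against 4.16% of all genes tested higher and 3.55% lower. On the recovered reads edgeR, DESeq2 and limma-voom also called 0 of the 46, against 2, 234 and 1 of the 10846 genes tested.

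Of the 46, 33 had a log2 fold change (Mcph1-/- over WT) above 0, which is 71.7%, against 53.8% of all genes tested. Their median log2 fold change was 0.20, against 0.08 for all genes. The 3 libraries of each genotype did not overlap for 5 proteasome genes that were higher in Mcph1-/- (Psma4, Psmb7, Psmc2, Psmd7 and Psmd12) and for 2 that were lower (Psmb8 and Psmb10). These are 10.9% and 4.3% of the 46, against 7.4% and 6.8% of all genes. Without WT replicate 1 the median of the 46 was 0.13 and that of all genes 0.04, so both medians were lower without that library.

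**Figure D2:**
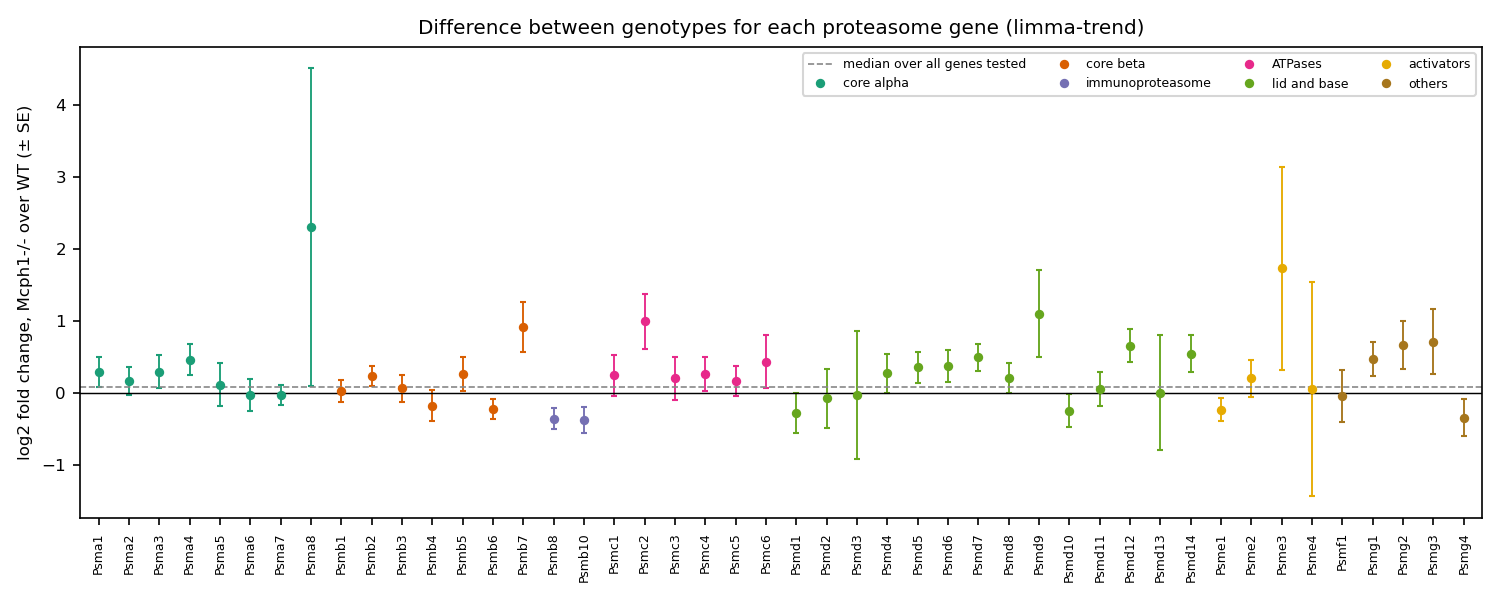
Log2 fold change of each proteasome gene (Mcph1-/- over WT, limma-trend) with bars of 1 SE on either side, coloured by role, and the median over all genes tested as a dashed line. All 6 ATPases lie above 0 and both immunoproteasome subunits below it, and Psma8, Psme3 and Psme4 have the widest errors.

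Together the 46 genes made up 1.55%, 1.57% and 1.52% of all reads for the WT libraries, compared with 1.64%, 1.66% and 1.71% for the Mcph1-/- libraries. Every Mcph1-/- library was above every WT library. In bulk libraries fewer cells of a type and less RNA per cell cannot be told apart, and this holds for each level below. The lid and base genes made up 0.280%, 0.293% and 0.292% for WT and 0.331%, 0.374% and 0.373% in Mcph1-/-, again without overlap. The immunoproteasome genes went the other way, with 0.226%, 0.207% and 0.194% in WT and 0.177%, 0.174% and 0.148% in Mcph1-/-. The shares of the constitutive beta subunits overlapped, at 0.366% to 0.396% in WT and 0.381% to 0.400% in Mcph1-/-. So did those of the ATPases, at 0.160% to 0.219% and 0.206% to 0.258%. The alpha subunits also overlapped, at 0.307% to 0.351% and 0.347% to 0.368%. Psmf1 and the Psmg chaperones did not overlap, with 0.0638% to 0.0791% in WT and 0.0889% to 0.0928% in Mcph1-/-. The activators took 0.0697% to 0.0888% in WT and 0.0672% to 0.0817% in Mcph1-/-. These sums are dominated by the most abundant genes of each role and were not tested.

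**Figure D3:**
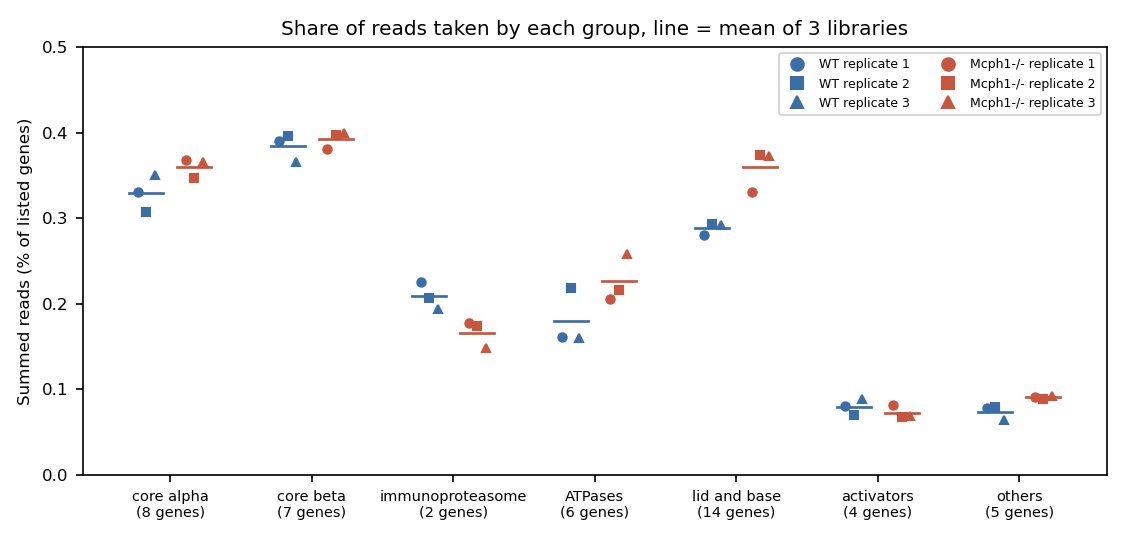
Summed reads of each role as a percentage of the reads of all listed genes, with 1 point per library and a line at the mean of 3 libraries. The immunoproteasome genes are lower in all 3 Mcph1-/- libraries and the lid and base genes higher, and the constitutive beta subunits overlap.

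The alpha subunits form the outer rings of the core particle. Of 8, 6 had a log2 fold change above 0, with a median of 0.22, which was 0.10 without WT replicate 1. Psma4 had values of 1558, 1458 and 1354 in WT and 2319.8, 1838 and 1862 in Mcph1-/-, a log2 fold change of 0.46 ± 0.21 (SE, n = 3 per genotype). All Mcph1-/- libraries were above all WT libraries, but the gene did not pass (limma adjusted p = 0.662). Psma1 had values of 3649, 4345 and 5759 in WT and 4727, 5563 and 6346 in Mcph1-/-. Psma3 had values of 1993, 1539 and 2337 in WT and 2532, 2612 and 1983 in Mcph1-/-. Both had a log2 fold change of 0.29, with overlapping groups.

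Psma8 is the alpha subunit known from the testis, where it replaces Psma7. It was at 0 in WT replicate 1 and at 341 and 549 in WT replicates 2 and 3, and its Mcph1-/- values were 272, 357 and 227. Its log2 fold change of 2.30 ± 2.21 rests on the library at 0, since the means of 297 and 285 were close and the value was -0.62 without WT replicate 1. Psma7, the constitutive counterpart, was far higher at 10917 to 13739 in all 6 libraries. The log2 fold changes of Psma2, Psma5, Psma6 and Psma7 were 0.16, 0.11, -0.03 and -0.03.

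Of the constitutive beta subunits, Psmb5, Psmb6 and Psmb7 carry the chymotrypsin-like, caspase-like and trypsin-like sites, and Psmb1 to Psmb4 are structural. The 7 had a median log2 fold change of 0.06, with 5 above 0. Psmb7 had values of 469.6, 976 and 1041 in WT and 1466, 1361 and 1576 in Mcph1-/-, or 829 ± 313 and 1468 ± 107 (SD, n = 3). The groups did not overlap, and WT replicate 1 lay far below the other WT libraries. The log2 fold change was 0.91 ± 0.35 (limma adjusted p = 0.626), and 0.54 without WT replicate 1.

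Psmb5 had values of 1261, 1750.4 and 1573 in WT and 1791, 2181 and 1535 in Mcph1-/-, which overlapped (log2 fold change 0.26). Psmb6, the most abundant proteasome mRNA per length, had values of 13318, 12293 and 11013 in WT and 9330.2, 10765 and 11112 in Mcph1-/-. Its highest Mcph1-/- library was just above the lowest WT library, and the log2 fold change was -0.23. Psmb2 had values of 6786, 6826 and 7699 in WT and 8389.7, 9050.4 and 7591 in Mcph1-/- (log2 fold change 0.23). Its groups overlapped by a single library. The structural subunits Psmb1, Psmb3 and Psmb4 had log2 fold changes of 0.02, 0.06 and -0.18. Among the catalytic subunits, Psmb7 was thus higher in every Mcph1-/- library and Psmb6 had a lower mean in Mcph1-/-, and neither passed the test.

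Psmb8 (ENSMUSG00000024338, chr17:34197721-34201454) and Psmb10 (ENSMUSG00000031897, chr8:105935735-105938444) encode the immune counterparts of Psmb5 and Psmb7. Psmb8 had values of 13926, 12806 and 12862 in WT and 11644, 10942 and 8594 in Mcph1-/-, or 13198 ± 631 and 10393 ± 1597. Every Mcph1-/- library was below every WT library. The log2 fold change was -0.36 ± 0.15 and the gene did not pass (limma adjusted p = 0.644). It was -0.22 without Mcph1-/- replicate 3, the lowest library.

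Psmb10 had values of 5926, 5214 and 4092 in WT and 3619.7, 3945 and 3979 in Mcph1-/-, or 5077 ± 925 and 3848 ± 198. The groups lay next to each other without overlap, and the log2 fold change was -0.38 ± 0.18 (limma adjusted p = 0.662). Scaled by library total in place of size factors, WT replicate 3 lay just below Mcph1-/- replicate 3, so that the groups then overlapped. Psmb8 remained apart under that scaling.

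Because each immune subunit takes the place of 1 constitutive subunit, their ratio was computed within each library, where the size factor cancels (the log2 ratios have 1 added to each value). The ratio of Psmb8 to Psmb5 was 11.0, 7.32 and 8.18 in WT and 6.50, 5.02 and 5.60 in Mcph1-/-. The log2 ratios were 3.12 ± 0.31 and 2.50 ± 0.19 (SD, n = 3), a difference of -0.62, or 1.53-fold higher in WT. The ratio of Psmb10 to Psmb7 was 12.6, 5.34 and 3.93 in WT and 2.47, 2.90 and 2.53 in Mcph1-/-. Its log2 ratios were 2.68 ± 0.87 and 1.39 ± 0.13, a difference of -1.29, or 2.45-fold higher in WT. In both pairs every WT library was above every Mcph1-/- library.

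Each ratio gave p = 0.1 in a two-sided exact permutation test, the smallest that 3 against 3 libraries allow, and 0.1 adjusted over the 2 pairs. Neither could therefore pass 0.05. Without WT replicate 1 the differences were -0.45 and -0.80, so the size of the difference for Psmb10 and Psmb7 depended on that library. Psmb8 shares 498 exonic bases, 14.7% of its exons, with Gm20496 on the opposite strand, and Psmb7 shares 405 bases, 11.8%, with Nek6. No strand setting is given, so reads in those stretches cannot be told apart. Gm20496 had values of 86.8, 96.8 and 95.2 in WT and 35.6, 44.3 and 65.2 in Mcph1-/-, far below those of Psmb8. Nek6 was at 0, 0 and 368 in WT and at 139.6, 126 and 169.6 in Mcph1-/-, nearer to the level of Psmb7, with 2 WT libraries below all Mcph1-/- libraries. The part of Nek6 in the Psmb7 values was not tested.

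**Figure D4:**
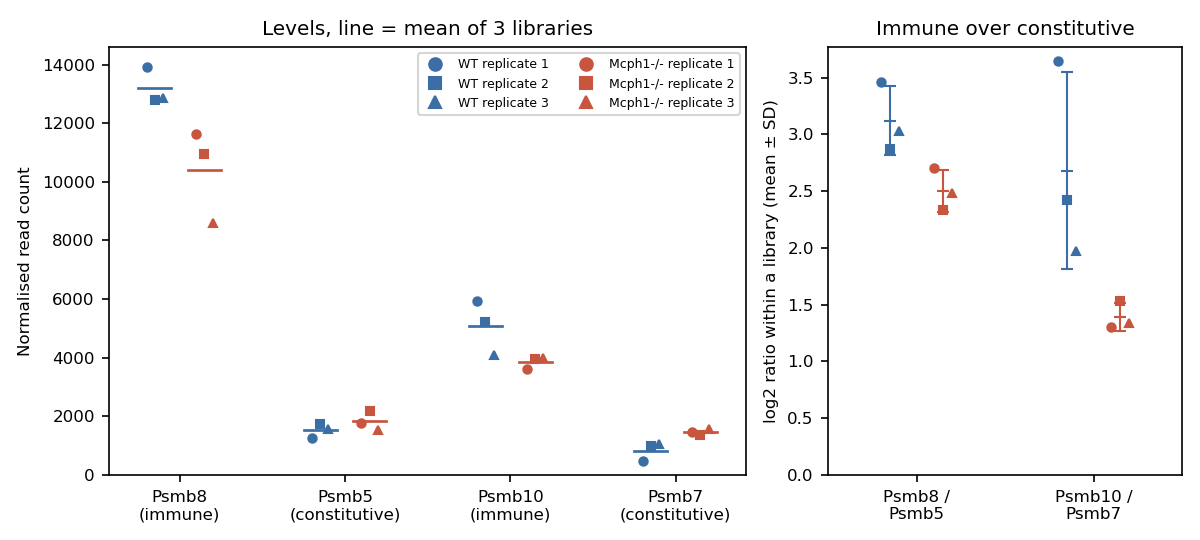
Normalised read counts of the immune subunits and their constitutive counterparts (left, line at the mean) and the log2 ratio within each library (right, mean ± SD, n = 3). Both ratios are higher in all 3 WT libraries, and WT replicate 1 has the highest ratio in each pair.

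The ATPases form the ring that unfolds substrates. All 6 had a log2 fold change above 0, with a median of 0.25. Without WT replicate 3 or without Mcph1-/- replicate 3, 5 of 6 were above 0, and the median was 0.17 to 0.43 with 1 library left out, reaching 0.43 without WT replicate 2 or without Mcph1-/- replicate 2. With all libraries, Psmc1, Psmc3 and Psmc5 had log2 fold changes of 0.24, 0.20 and 0.16. Psmc2 had normalised read counts of 686, 1776 and 1445 in WT and 1815, 2646 and 2886 in Mcph1-/-, or 1302 ± 559 and 2449 ± 562. The groups did not overlap, though WT replicate 2 and Mcph1-/- replicate 1 nearly met. The log2 fold change was 0.99 ± 0.38 (limma adjusted p = 0.626), and 0.58 without WT replicate 1.

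Psmc6 had values of 615, 1276 and 1634 in WT and 1636, 1479 and 1288 in Mcph1-/-. Its log2 fold change was 0.43 with all libraries and 0.02 without WT replicate 1, by far its lowest library. Psmc4 had values of 3312, 5186 and 3019.6 in WT and 3912, 5430.4 and 4187 in Mcph1-/-, with overlapping groups and a log2 fold change of 0.26.

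The lid of the regulatory particle removes ubiquitin from the substrate. Its 8 subunits among the chosen symbols are Psmd3, Psmd6, Psmd7, Psmd8, Psmd11, Psmd12, Psmd13 and Psmd14. Of these, 7 had a log2 fold change above 0 (median 0.29). The lid component Sem1, outside the chosen symbols, had a log2 fold change of -0.28. Psmd12, a scaffold subunit of the lid, had values of 2129, 3103 and 1975 in WT and 3895, 3138 and 4119 in Mcph1-/-, or 2402 ± 612 and 3717 ± 514. The groups did not overlap, although WT replicate 2 and Mcph1-/- replicate 2 differed little. Psmd12 had the smallest p among proteasome genes, with a log2 fold change of 0.65 ± 0.23 (limma adjusted p = 0.626). Its promoter is printed above.

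Psmd7, the partner on which the lid deubiquitinase Psmd14 docks, had values of 2897, 2515 and 3480.2 in WT and 3519, 4381 and 4559.6 in Mcph1-/-. The groups did not overlap and the log2 fold change was 0.49 ± 0.19 (limma adjusted p = 0.637). Psmd14 had values of 1799, 2717 and 1476 in WT and 2474, 3033 and 2972 in Mcph1-/-. WT replicate 2 was above Mcph1-/- replicate 1, and the log2 fold change was 0.54. Without WT replicate 3 the value of Psmd14 was 0.35. The log2 fold changes of Psmd3, Psmd6, Psmd8, Psmd11 and Psmd13 were -0.03, 0.37, 0.20, 0.05 and 0.00.

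Psmd13 had values from 102 to 700.0 and shares 10.1% of its exons with Sirt3 on the opposite strand, which was at 2247 to 3193. The base subunits without ATPase activity, the scaffolds Psmd1 and Psmd2 and the ubiquitin receptor Psmd4, had log2 fold changes of -0.28, -0.08 and 0.27. The chaperones that assemble the base, Psmd5, Psmd9 and Psmd10, had log2 fold changes of 0.35, 1.10 and -0.25. Psmd9 was at 271, 973 and 191 in WT and at 751, 911 and 724 in Mcph1-/-, so WT replicate 2 was the highest of the 6. It shares 25.5% of its exons with Gm26745 on the opposite strand, which is not analysed here.

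The summed normalised reads of ATPases, lid and base, divided by those of the alpha and constitutive beta subunits, were 0.613, 0.728 and 0.631 in WT. In Mcph1-/- the ratio was 0.717, 0.793 and 0.823. WT replicate 2 was above Mcph1-/- replicate 1, so the groups overlapped. For the lid and base without the ATPases the ratio was 0.389, 0.417 and 0.407 in WT and 0.442, 0.503 and 0.487 in Mcph1-/-, without overlap. The sum of the immunoproteasome genes over the constitutive beta subunits was 0.580, 0.522 and 0.528 in WT and 0.464, 0.437 and 0.371 in Mcph1-/-, also without overlap.

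The activators open the core without the regulatory particle. Psme1 and Psme2 together form the interferon-inducible activator that works with the immunoproteasome. Psme1 had values of 5616, 5075 and 5542 in WT and 5314, 4010.5 and 4484 in Mcph1-/- (log2 fold change -0.24). Mcph1-/- replicate 1 was above WT replicate 2, so the groups overlapped. Psme2 had values of 941, 853 and 1193 in WT and 1253, 1194 and 980.3 in Mcph1-/- (log2 fold change 0.20), also with overlap. With the reads of its copy Psme2b added, its log2 fold change was 0.06.

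Psme3 and Psme4 encode nuclear activators and varied more between libraries than Psme1 and Psme2. Psme3 was at 9.76, 133 and 752 in WT and at 277, 451 and 314 in Mcph1-/-. Its log2 fold change was 1.73 ± 1.41 with all libraries and 0.10 without WT replicate 1. Psme4 was at 551, 10.3 and 294 in WT and at 213, 108 and 86.6 in Mcph1-/-. The mean was lower in Mcph1-/- (136 against 285) while the log2 fold change was 0.05 ± 1.49, and without WT replicate 2, the lowest library, it was -1.67. No direction can be given for either.

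Psmg1 and Psmg2 pair up to start the alpha ring, as do Psmg3 and Psmg4. Psmg1 had values of 2673, 1901 and 2046 in WT and 3809, 2317 and 3130.2 in Mcph1-/- (log2 fold change 0.47). Psmg2 had values of 946, 680.0 and 1299 in WT and 1169, 1975 and 1430.3 in Mcph1-/- (log2 fold change 0.66). In each, 1 Mcph1-/- library lay within the WT range. Psmg3 had values of 373, 1007 and 430.2 in WT and 678, 1186 and 885 in Mcph1-/-, and its log2 fold change of 0.71 was 0.44 without WT replicate 1. Psmg4 and the inhibitor Psmf1 had log2 fold changes of -0.35 and -0.05. None of the 5 had groups apart.

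Levels can be compared between genes only per length, so values were divided by the length of the principal mRNA. Where a gene had several of equal rank, the longest was taken, and its level per kilobase depends on that choice. Per kilobase, Psmb6 (14167 normalised reads, mean of 6 libraries), Psma7 (13223), Psmb2 (8992) and Psmb8 (7246) were highest. Psme4 (32.4), Psme3 (121), Psmd13 (147) and Psma8 (172) were lowest. Psmb8 was 6.10, 4.04 and 4.52 times as high per kilobase as Psmb5 in WT and 3.59, 2.77 and 3.09 times in Mcph1-/-. For Psmb10 over Psmb7 the ratio per kilobase was 11.2, 4.73 and 3.48 in WT and 2.18, 2.56 and 2.23 in Mcph1-/-. As counted, the immune mRNA was the more abundant of each pair in every library of both genotypes. Psmb5 has 2 annotated near-identical pseudogenes, Gm3375 and Psmb5-ps, that are not analysed here, so its level and its ratio may be affected by reads counted there or left out.

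The order per kilobase depends on processed copies of these genes, since 19 of the 46 have an annotated near-identical copy (at least 90% identity over 200 bases). For 11 of them the table lists the matching gene with reads of its own. In 2 of the 11 the match is an overlapping neighbour (Nek6 for Psmb7 and Sirt3 for Psmd13), whose reads were not added, and in the other 9 it is a pseudogene or retrogene. Of the summed reads, the copies held 83.3% to 84.7% for Psma5, 76.8% to 81.8% for Psme2 and 69.4% to 75.1% for Psma3. With them added, the level per kilobase of Psma5 moved from 702 to 4385, that of Psme2 from 1111 to 5323 and that of Psma3 from 761 to 2759. Psme2 was then near its partner Psme1 at 4503.

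Copies also held 44.7% to 51.4% of the reads for Psmd11, 38.8% to 41.1% for Psmb3 and 29.7% to 37.5% for Psma4. Which of these reads came from the parent gene cannot be told apart here. Adding them changed no call, and the log2 fold change of Psma4 was then 0.45, that of Psma3 0.45 in place of 0.29 and that of Psme2 0.06 in place of 0.20. Psmd12, Psmc2, Psmd7 and Psmb10 had no annotated copy at this limit.

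**Figure D5:**
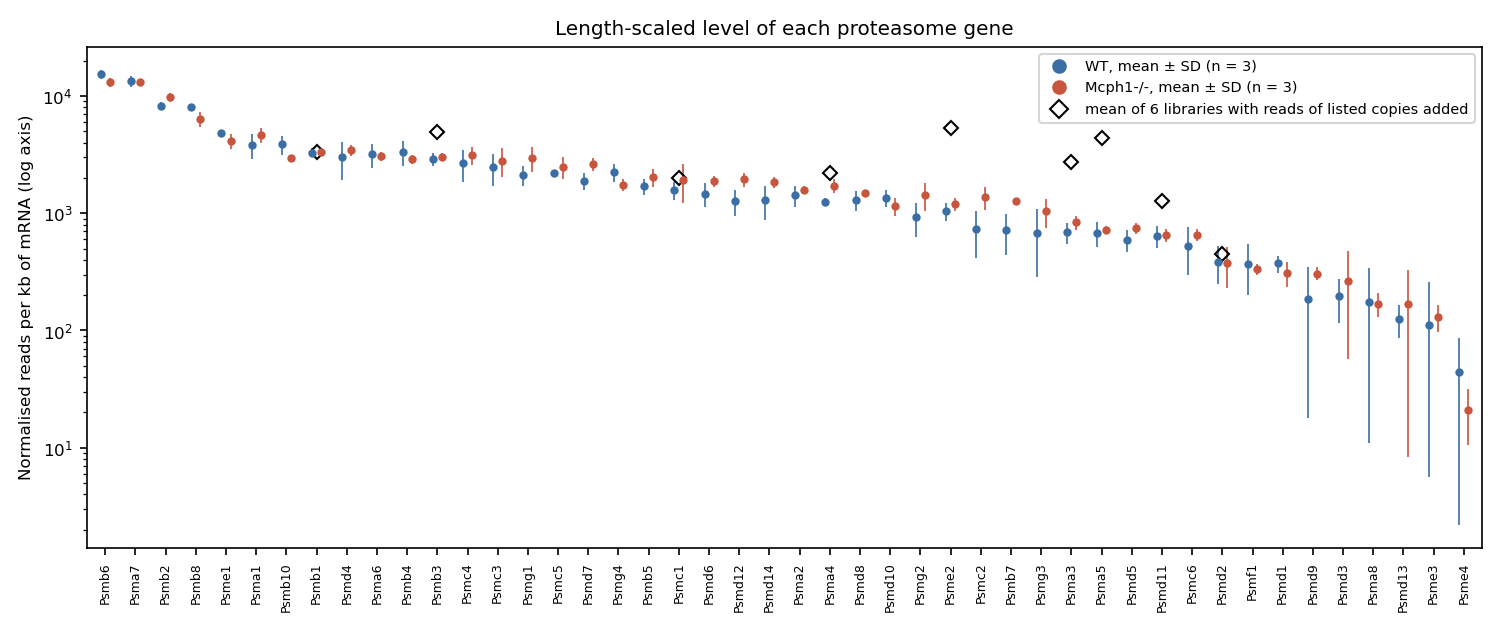
Normalised reads per kilobase of mRNA for each proteasome gene in WT and Mcph1-/- (mean ± SD, n = 3, log axis), ordered by the mean of 6 libraries, with diamonds where reads of listed copies were added. Levels run from 14167 for Psmb6 to 32.4 for Psme4, and Psma5, Psme2 and Psma3 move most when copies are added.

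The proteasome genes were also placed beside other genes of the pathway, in lists of which no gene passed the limma test. Of 8 assembly and maturation factors outside these symbols, 6 had a log2 fold change above 0 and 2 below (median 0.72), and the smallest p-values were those of the importer Ipo9 (4.77 by limma and 1.36 by edgeR, with 0 reads in 2 WT libraries) and the lid component Sem1 (-0.28). Of 12 proteasome-associated deubiquitinases and ubiquitin shuttles, 9 were above 0 (median 0.27), and Zfand2a (4.18) and Ube3c (3.48 by limma and 1.85 by edgeR) had the smallest p, both with WT libraries at 0 or at a single read. Of 14 genes of the p97 segregase and its cofactors, 10 were above 0 (median 0.28), and the cofactors Nsfl1c (-0.61) and Faf2 (-1.19, and -0.38 without Mcph1-/- replicate 1) had the smallest p. Members of these lists were lower and more variable than the proteasome genes, with median mean values of 199, 270.3 and 666 and median SDs of 1.36, 0.70 and 0.62.

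Of 10 ubiquitin genes and activating or conjugating enzymes, 7 were above 0 (median 0.38). The polyubiquitin gene Ubb, a main source of ubiquitin, had values of 54521, 54530.2 and 56606 in WT and 44485, 40289 and 41451 in Mcph1-/-. All Mcph1-/- libraries were lower, with a log2 fold change of -0.39 ± 0.10. It did not pass by limma (adjusted p = 0.551), edgeR (0.703) or limma-voom (0.0639) and passed by DESeq2 (0.00242). The conjugating enzyme Ube2d3 had a log2 fold change of 1.15.

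Of 10 transcription factors linked to proteasome genes, 6 were above 0 (median 0.21). Nfe2l2 (NRF2) was at 608, 801 and 419 in WT and at 1149, 787 and 1687 in Mcph1-/- (log2 fold change 0.97 ± 0.39, limma adjusted p = 0.639), with overlap. Nfe2l1 (NRF1), the main inducer of proteasome genes, was at 75.9, 83.5 and 433 in WT and at 86.7, 215 and 334 in Mcph1-/-. Maf had a log2 fold change of -3.27, which ranged from -4.88 to -2.23 with 1 library left out and was -1.52 with a pseudocount of 16. Its values were 162, 81.4 and 4.05 in WT and 0.912 (a single read), 38.6 and 0 in Mcph1-/-, so the size of the change rests on libraries at or near 0.

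The interferon-responsive class I partners of the immunoproteasome split evenly, with 5 of 10 above 0 (median -0.01). The class I heavy chain H2-K1 and the peptide-loading factor Tapbp had log2 fold changes of -0.35 and -1.13. The value of Tapbp was -0.73 without WT replicate 1, and 24.9% of the exonic bases of Tapbp are shared with Gm19412 on the opposite strand. These 10 genes made up 1.33% to 1.38% of reads in WT and 1.06% to 1.27% in Mcph1-/-, without overlap. Most of this sum came from B2m (mean 76996 in WT and 66433 in Mcph1-/-), H2-K1 and H2-D1, so it says little of the other genes on the list. The share of the immunoproteasome genes was also lower without overlap.

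Markers of other cell types and of division also differed between genotypes. Neutrophil and granule genes (7 of 11 listed) took 0.673% to 0.774% of reads in WT and 0.0381% to 0.221% in Mcph1-/-. Of these, S100a8, S100a9, Ngp and Camp were lower in every Mcph1-/- library. Mpo (log2 fold change 1.45), Elane and Prtn3 overlapped between genotypes. Monocyte, macrophage and dendritic cell genes (4 of 7 listed) took 0.162% to 0.175% in WT and 0.080% to 0.0925% in Mcph1-/-. Most of that difference came from Lyz2 (mean 10187 in WT and 4486 in Mcph1-/-), while Cd74 and H2-Aa overlapped between genotypes. Erythroid genes (10 of 11) took 0.208% to 0.450% and 0.569% to 0.644%. Car1 (1628 to 4566 in WT and 23716 to 31845 in Mcph1-/-) added most of the difference in that sum. Klf1 (199.9 to 1017 in WT and 2394 to 2997 in Mcph1-/-) was also higher in every Mcph1-/- library. So was Gata1 (0 to 217 in WT and 628 to 813 in Mcph1-/-). The globin genes Hba-a1, Hba-a2 and Hbb-bs were lower in every Mcph1-/- library than in any WT library, and of the monocyte list Ctss was higher in every one. Mitosis genes (14 of 14) took 0.0509% to 0.0804% and 0.145% to 0.171%. All 14 mitosis genes had a log2 fold change above 0 (median 1.64), with Ube2c at 2.40 and Kif11 at 7.48. Ube2c shares 22.8% of its exonic bases with Tnnc2 on the opposite strand, and Kif11 was at 0 in 2 WT libraries. Stem cell markers took 0.217% to 0.255% in WT and 0.176% to 0.200% in Mcph1-/-. Of the 14 tested, 5 had a log2 fold change above 0 and 9 below. That list includes Cd34, against which the cells were sorted, and Cd48. Cd48 was at 2.17, 119.5 and 101 in WT and at 296, 1153 and 514 in Mcph1-/-, higher in every Mcph1-/- library. Megakaryocyte (6 of 7), B cell (4 of 7) and T and NK cell genes (1 of 6) overlapped between genotypes. The part of these differences in the proteasome values was not tested.

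Libraries differed in how often they were the extreme for a proteasome gene. WT replicate 1 was the lowest of the 6 libraries for 14 of the 46 (30.4%), against 22.9% of all genes tested, and the highest for 11 (23.9%, against 19.6%). Mcph1-/- replicates 2 and 3 were each the lowest for 2 (4.3%), against 12.1% and 11.9% of all genes.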

How the data were processed

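The authors deposited 1 signal per gene and library, gene read counts divided by a size factor per library, from 0.922 to 1.22. Whole reads were recovered, since 100% of values are multiples of 1 read to within 0.001 reads. Per the submitters' processing notes, featureCounts, HISAT2, DESeq2, Trim Galore 0.6.6 and mm10 were used, with no role or order given. For the strand setting and annotation release, the choice was not given in the sources used here. Libraries of 200 cells were sequenced with paired 150-bp reads, per the labels' protocols.

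Libraries were grouped by the genotype in their titles. Genes with a mean of at least 10 (10846 of 11108) were tested with limma 3.58.1 (limma-trend) on log2(value + 1), with genotype alone in the model, and called at a Benjamini-Hochberg adjusted p under 0.05. Fold changes are on that log2 scale, which understates changes of low genes but can exceed the change of the means where a library is at or near 0. It was first tested on simulated data. Alternatives were edgeR 4.0.16, DESeq2 1.42.0 and limma-voom on recovered reads, pseudocounts of 16 and 0.5, a minimum of 50 or none, scaling by library total, a replicate block and leaving out each library. Adding copy reads, and non-overlap by library total, were chosen after seeing the data. Summed shares of reads and summed ratios between roles were not in the plan set beforehand. Libraries of a genotype differed beyond sampling noise, with a chi-square of at least 82.9 per degree of freedom. Floors cover counting error only.

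The members and gene lists were chosen with earlier results of these data known. Every member is named. Values in each library are given for the 3 members of each role with the smallest p, the immunoproteasome genes and their counterparts, the activators and members with a library at 0. Of each other pathway list, the 2 genes with the smallest p are named. Psmd9, Psmd13, Psma7 and Nfe2l1 were given values after these were seen. Positions come from GENCODE vM21 (GRCm38), promoters from RefSeq (GRCm38.p6), and copies from transcript alignment with blastn 2.17.0.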

Additional observations from a re-analysis of the deposited data

How the results depend on the processing

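No proteasome gene passed under any alternative tried. Their median log2 fold change was 0.17 to 0.27 in all of these except without WT replicate 1 (range 0.13 to 0.27 with 1 library left out). The number of genes called over the whole table was 4 by limma-trend, 2 by edgeR, 234 by DESeq2 (106 higher, 128 lower) and 1 by limma-voom, and 1 to 4 with 1 library left out. The cause was not tested. The smallest adjusted p among the proteasome genes was 0.804 by edgeR, 0.0903 by DESeq2 and 0.555 by limma-voom. DESeq2 called Ubb (log2 fold change -0.39) and Ube2c (2.27), which limma-trend did not. Median log2 fold change over all genes was 0.08 by limma-trend and -0.03 by DESeq2, where that of the proteasome genes was 0.20.

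The number of proteasome genes whose groups do not overlap was 7 with all libraries, 7 by library total (6 higher, with Psmb2 added, and 1 lower), and 11 to 18 with 1 library left out, where fewer libraries overlap less easily. The log2 fold change of Psme4 changed sign with a pseudocount of 16 (-0.22), by edgeR (-1.03) and DESeq2 (-1.07), and ranged from -1.67 to 1.14 with 1 library left out. That of Psma8 did so by edgeR (-0.02) and DESeq2 (-0.06) and ranged from -0.62 to 3.93. Both have a WT library at 0 or near it, which a mean of log values weights more than a mean of reads.
The alpha subunit median was 0.14 by edgeR, 0.11 by DESeq2 and 0.10 to 0.30 with 1 library left out. The lid and base median was 0.37 by edgeR, 0.34 by DESeq2, and 0.10 to 0.34 with 1 library left out.

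Replicate numbers did not pair the libraries: same-numbered libraries had deviations correlated at -0.014, 0.018 and -0.03. With a replicate block 3 genes were called over the whole table and 0 proteasome genes, with the median at 0.20. Both subunit ratios then had a two-sided exact permutation p of 0.25. That is the smallest p that 3 replicate blocks allow, so neither ratio could pass there either.
With 3 libraries per genotype and 200 cells each, the precision of low members such as Psme3, Psme4 and Psma8 is limited most.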
